A study of Sus scrofa with 16 samples.

Results

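The antioxidant and glutathione enzymes of pig subcutaneous adipose tissue (SCAT) were described here from 39 listed genes. Members were the probes of the scanner files that carried one of these gene names, were not control spots, and were flagged well above background on at least 8 of 16 arrays. A probe is a single-stranded DNA of 60 bases that captures the labelled copy of 1 transcript. Of the 39 genes, 22 were named on the array by 75 probes, and 21 of them met the rule with 74 probes, out of 43603 probes in all, of which 32097 were kept for the tests. The other 17 genes had no probe under their own name and were not analysed here: SOD3, GPX7, GPX8, GCLC, GCLM, GSS, GSTA4, GSTM3, GSTP1, MGST2, PRDX1, PRDX2, PRDX3, TXN2, NFE2L2, SRXN1 and MSRA.

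The 16 pigs weighed 20 kg and had free access to feed. Residual feed intake (RFI) is the feed eaten beyond what growth and maintenance predict. Selection had been for low RFI in the line of 8 of the pigs (low-RFI) and for high RFI in the line of the other 8 (high-RFI), with 1 array per pig. The labels name no further treatment of either group. Each line was numbered from 1 to 8, and replicates 1 to 4 were also compared with replicates 5 to 8 (the replicate sets); the labels do not say what the numbers stand for. The age, sex and litter of the pigs are not given in the sources used here, and a tissue sample holds all cell types of the fat, so fewer cells of a type and less RNA per cell cannot be told apart.

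Cells meet superoxide and peroxides with linked enzyme families. Superoxide dismutases turn superoxide into hydrogen peroxide, which catalase, glutathione peroxidases and peroxiredoxins then reduce. Glutathione reductase and thioredoxin reductases restore the reducing power with NADPH, glutathione S-transferases attach glutathione to reactive compounds, and the KEAP1-NRF2 system controls transcription of many of these genes. In fat tissue, peroxides also arise from lipid oxidation and from mitochondria.

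Levels are log2 signals relative to the 75th percentile of all probes on the same array, so 0 is that percentile and a step of 1 is a 2-fold change. They were read per probe, and because probes bind with different strength, levels were compared between arrays and never between probes. Where a gene had several probes, the one with the highest mean stood for it. The spread over 16 arrays was above the median SD of all kept probes (0.31) in 12 of 21 members. By the probe that stood for each member, the highest array was between 1.47-fold (KEAP1) and 18.6-fold (GPX2) above the lowest. Low-RFI replicate 4 and high-RFI replicate 3 were above the mean for 17 of 21 members each, and low-RFI replicate 1 and high-RFI replicate 5 for 3 of 21 each. The tissue label was checked against 12 of 14 adipocyte markers, 11 of which were well above background on all arrays; FABP4, a fatty acid binding protein, stood at 8.53 ± 0.13 and ADIPOQ, adiponectin, at 8.34 ± 0.20 (SD, n = 16). The share of spots well above background ran from 68.7% to 80.3% per array, and no spot was saturated. Skeletal muscle markers (11 of 18 measured) summed to 10.73 on the array of low-RFI replicate 8 and to 3.67 to 4.89 on the other 15 arrays. One of the alternative fits left out this array together with high-RFI replicates 2, 5 and 6, whose muscle sums were 4.85, 3.95 and 4.89.

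**Figure D1:**
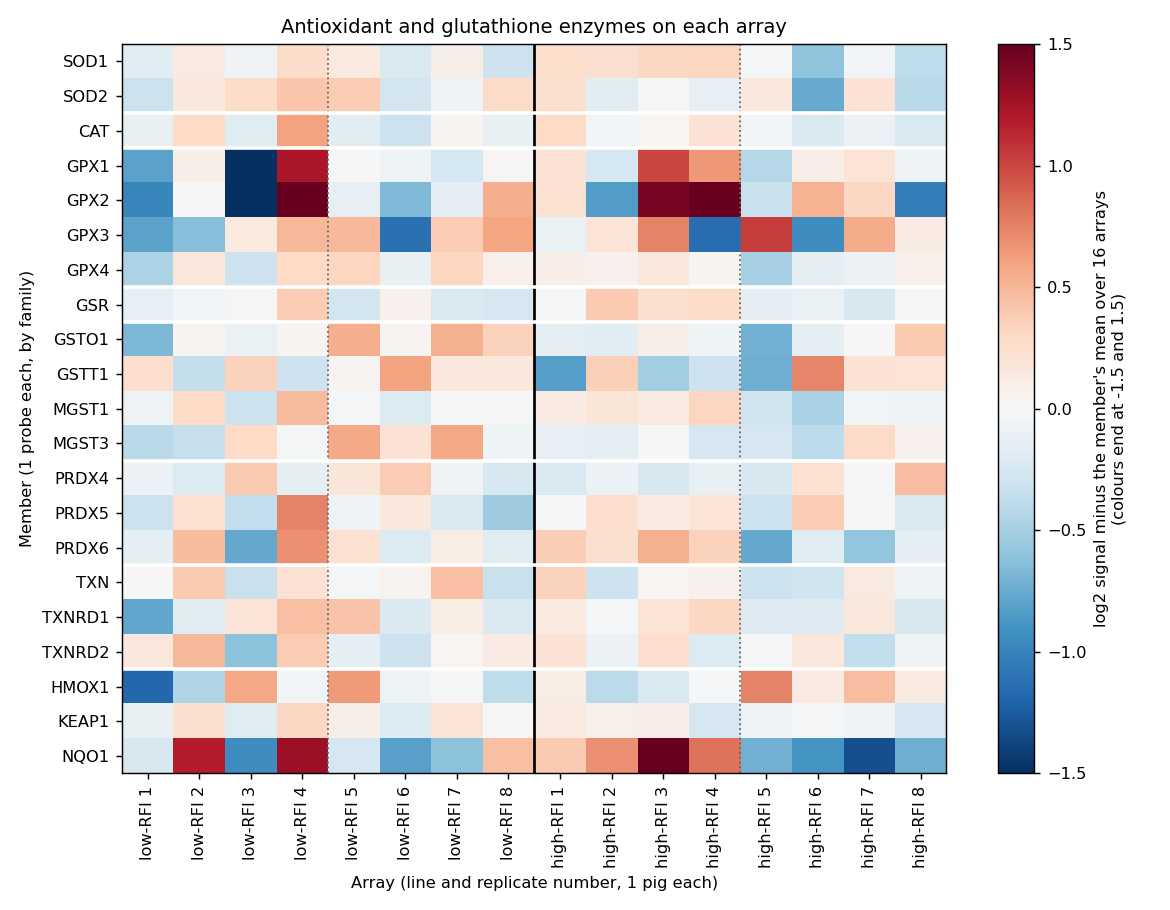
Deviation of each member's log2 signal from its own mean (colour) on each of the 16 arrays (columns, low-RFI left of the black line, dotted lines between replicates 4 and 5), with members in rows by family. GPX1, GPX2, GPX3 and NQO1 carry the strongest colours, and low-RFI replicate 4 is the highest array for 9 of 21 members.

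The SOD1 and CAT probes with the highest mean had an SD below the median of all kept probes, and that of SOD2 was just above it. SOD1, the cytosolic copper and zinc enzyme, had 5 probes and a level of 7.12 ± 0.28 (SD, n = 16), and SOD2, the mitochondrial manganese enzyme, 4.03 ± 0.33 (SD, n = 16). SOD1 ranged from 6.82 to 7.40 (median 7.14) in low-RFI pigs and from 6.52 to 7.45 (median 7.23) in high-RFI pigs, so the high-RFI range enclosed the low-RFI one. By the brightest probe of each, the lowest SOD1 and SOD2 signals were both on the array of high-RFI replicate 6. This depended on the probe. SOD2 probes A_72_P613087, A_72_P648498 and A_72_P669424 were lowest in low-RFI replicate 1, and SOD1 probe A_72_P741111 was lowest in high-RFI replicate 8. SOD2 had 5 probes, and a pair of them carried an identical sequence; their difference over the 16 arrays had an SD of 0.08, a direct reading of the spot error. Against the other 3 SOD2 probes the brightest one correlated only at 0.54 to 0.75, while those 3 followed each other at 0.90 to 0.96, so the SOD2 probes did not share one pattern. CAT, catalase, which splits hydrogen peroxide in peroxisomes, had 9 probes that followed each other at r = 0.82 to 0.97 and a level of 6.58 ± 0.25 (SD, n = 16). The brightest SOD1 probe is shown here in lower case, with the pair of CAT probes that had the widest difference between replicate sets (given further on).
SOD1 A_72_P721668: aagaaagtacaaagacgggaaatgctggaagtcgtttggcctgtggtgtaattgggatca
CAT A_72_P643147: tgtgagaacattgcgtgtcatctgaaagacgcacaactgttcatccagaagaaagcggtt
CAT A_72_P686566: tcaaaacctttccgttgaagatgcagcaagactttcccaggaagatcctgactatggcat

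By the brightest probe of each, GPX2 varied most of the 21 members, followed by NQO1, GPX3 and GPX1, while GPX4 stayed below the median SD of all kept probes. The place of GPX1 depended on the probe. Its 6 probes had an SD of 0.66 to 1.06, against 0.71 to 0.74 for GPX3 and 0.94 to 0.98 for NQO1. GPX1, the widespread cytosolic enzyme, was measured by 6 probes and GPX2, best known from the gut epithelium, by 1. The GPX1 probes below share at most 5 bases in a row, so the GPX1 pattern was read at separate places of the transcript. The longest run of bases that the GPX2 probe shared with any GPX1 probe was 7. Probes at separate places of the same transcript also share only short runs. This run therefore cannot tell whether the GPX2 probe also captures GPX1 RNA. Neither the whole GPX1 transcript nor the whole GPX2 transcript was compared here.
GPX1 A_72_P564112: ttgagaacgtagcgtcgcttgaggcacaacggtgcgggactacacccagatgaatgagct
GPX1 A_72_P689751: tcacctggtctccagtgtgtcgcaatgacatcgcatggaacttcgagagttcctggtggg
GPX2 A_72_P144826: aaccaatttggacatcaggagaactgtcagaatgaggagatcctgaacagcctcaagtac
GPX1 (brightest probe) was 5.64, 6.53, 4.85 and 7.66 in low-RFI replicates 1 to 4 and 6.44, 6.36, 6.18 and 6.46 in low-RFI replicates 5 to 8. In high-RFI pigs it was 6.66, 6.18, 7.44 and 7.09 in replicates 1 to 4 and 6.01, 6.55, 6.65 and 6.38 in replicates 5 to 8. Low-RFI replicate 3 was the lowest and low-RFI replicate 4 the highest of all, so the widest spread lay inside one group of 4 pigs. The highest array was 7.04-fold above the lowest by this probe and 23.6-fold by A_72_P564112, and all 6 probes followed each other at r between 0.977 and 0.998. The SD of the brightest GPX1 probe was larger than that of 88.5% of all kept probes. Low-RFI replicate 3 also had the lowest summed signal of adipocyte markers (10.21; all arrays up to 10.72), endothelial markers (5.76, 7 of 10 measured; up to 6.55) and neutrophil markers (0.87, 4 of 7 measured; up to 4.15), and the highest of fibroblast markers (8.51, 5 of 9 measured; from 7.66). The part of these cell types in the GPX1 level was not tested.

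GPX2 ran from -5.32 in low-RFI replicate 3 to -1.10 in low-RFI replicate 4, the same arrays that were extreme for GPX1. Its probe was well above background on all 16 arrays, but the lowest value was dim. The GSTA1 probe missed that flag at -6.34 in low-RFI replicate 2. The wide fold range of GPX2 rests in part on this dim value. Over the 16 arrays GPX2 and GPX1 correlated at Pearson r = 0.93 and Spearman rho = 0.89, and at r = 0.85 without the 2 arrays farthest from the GPX1 median. Within replicates 1 to 4 r was 0.98 and within replicates 5 to 8, where GPX1 varied little, it was 0.47. This pair was picked after the values were seen and is given as a description, with no p. Among all 32097 kept probes, the GPX2 probe was the only one outside GPX1 with r above 0.9 to the brightest GPX1 probe; the next one reached 0.89. PRDX6, by comparison, had 124 such probes of other names and NQO1 68. GPX3, the secreted plasma enzyme, had 4 probes with r = 0.97 to 0.99 between them and a pattern of its own. It was lowest in high-RFI replicate 4 (4.86) and low-RFI replicate 6 (4.89) and highest in high-RFI replicate 5 (7.04), its r with GPX1 was 0.07, and no probe of another name exceeded r = 0.82 to it. GPX4, which reduces lipid peroxides in membranes, stood at 6.84 ± 0.26 (SD, n = 16), and its closest member was GSTO1 (r = 0.82). GSR, glutathione reductase, was read by 1 probe at 0.84 ± 0.22 (SD, n = 16).

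**Figure D2:**
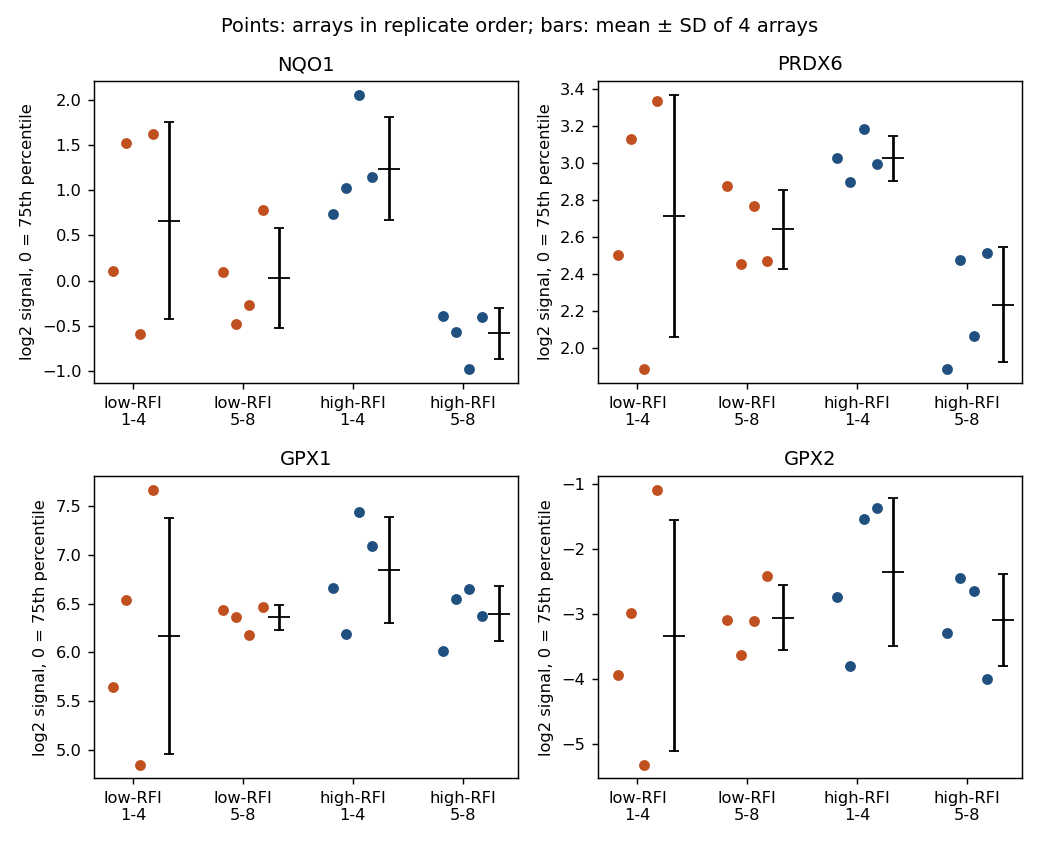
Log2 signal (vertical axis, 0 is the array's 75th percentile) of NQO1, PRDX6, GPX1 and GPX2 on each array, grouped by line and replicate set (low-RFI orange, high-RFI blue), with mean and SD of the 4 arrays of each group. In high-RFI pigs NQO1 and PRDX6 of replicates 1 to 4 lie above replicates 5 to 8 without overlap, and low-RFI replicates 1 to 4 have the largest SD of the 4 groups for each gene. The share of all kept probes that separate in this way was not counted.

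Among the transferases, by the brightest probe of each, GSTT1 had the largest SD and MGST1 the smallest. The place of MGST1 depended on the probe. Its 7 probes had an SD of 0.25 to 0.43, against 0.31 to 0.35 for MGST3 and 0.36 for GSTO1. MGST1, a microsomal transferase, had 7 probes that followed each other at r = 0.54 to 0.98. The probe A_72_P691959 followed the brightest one at 0.70 only. The pair shown here differed at 4 of 60 positions (in capitals). These nearly identical probes tracked each other at r = 0.98, and their difference over the arrays had an SD of 0.05.
MGST1 A_72_P618926: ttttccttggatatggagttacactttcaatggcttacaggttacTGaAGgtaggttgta
MGST1 A_72_P672779: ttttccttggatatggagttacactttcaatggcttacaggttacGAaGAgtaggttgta
MGST1 ranged from 5.90 to 6.69 (median 6.20) in low-RFI pigs and from 5.74 to 6.54 (median 6.26) in high-RFI pigs, with overlapping lines. MGST3, a further microsomal transferase, stood at 6.98 ± 0.31, GSTO1, an omega-class enzyme, at 4.38 ± 0.36, and GSTT1, a theta-class enzyme, at -1.13 ± 0.46 (SD, n = 16 each). GSTA1, an alpha-class enzyme, was the named gene that missed the rule. Its single probe was well above background on 4 arrays only, at -3.16 in low-RFI replicate 3 and at -4.85, -0.42 and -4.35 in high-RFI replicates 2, 6 and 8. High-RFI replicate 6, the highest, also had the highest summed signal of skin epithelium markers (3.25, 5 of 10 measured, against -1.46 to 2.34 on the other 15 arrays), and high-RFI replicate 2 the next (2.34). Low-RFI replicate 3 was at -0.25 and high-RFI replicate 8 at 0.45 for these markers. High-RFI replicates 4 and 7, at 2.06 and 2.05, had no GSTA1 signal well above background. The part of epithelium in the GSTA1 signal was not tested.

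Among peroxiredoxins, PRDX6, which also has phospholipase activity, varied more than PRDX4 of the endoplasmic reticulum and PRDX5 of mitochondria and peroxisomes. A pair of PRDX6 probes that share 38 bases (in capitals) is shown with another that lies apart from them.
PRDX6 A_72_P575489: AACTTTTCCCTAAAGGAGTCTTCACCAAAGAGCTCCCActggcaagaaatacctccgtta
PRDX6 A_72_P665743: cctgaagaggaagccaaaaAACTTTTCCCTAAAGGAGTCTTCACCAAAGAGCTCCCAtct
PRDX6 A_72_P633743: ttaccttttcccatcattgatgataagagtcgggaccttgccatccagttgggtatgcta
The overlapping pair correlated at r = 0.97 over arrays, and all 6 PRDX6 probes at 0.94 to 0.99. PRDX6 (brightest probe) ranged from 1.89 to 3.34 (median 2.63) in low-RFI pigs and from 1.88 to 3.19 (median 2.71) in high-RFI pigs. Low-RFI replicate 3 and high-RFI replicate 5 were the low arrays and the lines overlapped over nearly their whole range. PRDX4 stood at 3.58 ± 0.25 and PRDX5 at 5.35 ± 0.33 (SD, n = 16 each). TXN, thioredoxin, stood at 4.96 ± 0.27, its cytosolic reductase TXNRD1 at 3.67 ± 0.31 and the mitochondrial reductase TXNRD2 at 1.24 ± 0.29 (SD, n = 16 each). TXNRD1 had 5 probes with r = 0.80 to 0.98 between them, and its lowest array was low-RFI replicate 1, which was also the lowest for HMOX1 and MGST3.

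The genes of the NRF2 system differed in spread. KEAP1, the sensor that holds NRF2 in check, was the steadiest member at 1.995 ± 0.175 (SD, n = 16). HMOX1, haem oxygenase 1, stood at 3.02 ± 0.48 (SD, n = 16), from 1.84 in low-RFI replicate 1 to 3.76 in high-RFI replicate 5. High-RFI replicate 5 also had the highest summed macrophage markers (5.40, 6 of 12 measured; 2.99 to 4.11 on the other 15 arrays), and their part in the HMOX1 level was not tested. NQO1, a quinone reductase and a classical NRF2 target, stood at 0.34 ± 0.94 (SD, n = 16), a spread larger than that of 95.3% of all kept probes. It was read by 3 probes with r = 0.98 to 0.99 between them, 1 of which is shown.
NQO1 A_72_P553981: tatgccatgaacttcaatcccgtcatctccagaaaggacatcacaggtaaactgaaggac
NQO1 (brightest probe) was 0.10, 1.52, -0.59 and 1.62 in low-RFI replicates 1 to 4 and 0.09, -0.48, -0.27 and 0.79 in low-RFI replicates 5 to 8. In high-RFI pigs it was 0.73, 1.02, 2.06 and 1.15 in replicates 1 to 4 and -0.39, -0.56, -0.98 and -0.40 in replicates 5 to 8. The high-RFI pigs fell into separate ranges by replicate set, while the low-RFI sets overlapped. By their brightest probes, PRDX6, SOD1, MGST1 and CAT were also lower in high-RFI replicates 5 to 8 without overlap, and HMOX1 was higher without overlap. How many of all kept probes separate in this way was not counted.

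The comparison of the lines asks whether low-RFI and high-RFI pigs differed in the transcripts of these enzymes, and no difference passed the test. With a single line per direction, an effect of selection cannot be told apart from other differences between the lines. Of 74 member probes, 0 passed an adjusted p of 0.05 and 0 an unadjusted p of 0.05; over all 32097 probes 0 passed the adjusted threshold (0% called) and 1161 (3.62%) the unadjusted one. Adjusted p-values here and below come from limma's moderated statistic with Benjamini-Hochberg adjustment over all 32097 kept probes. The median difference, low-RFI minus high-RFI, was 0.02 over member probes and 0.00 over all kept probes, with 33 of 74 member probes below 0, against 49% of all probes. SOD2 had the smallest p of the 21 members, with a difference of 0.21 (SE 0.15, 95% interval -0.11 to 0.54, unadjusted p = 0.186, adjusted p = 0.9997). Its other probes reached down to -0.03. MGST3 differed by 0.20 (interval -0.12 to 0.52), GSTO1 by 0.19 (-0.17 to 0.56) and GSTT1 by 0.22 (-0.24 to 0.68). HMOX1 differed by -0.23 (-0.72 to 0.25). GPX1 differed by -0.35 (-1.003 to 0.30) by its brightest probe and by -0.41 to -0.66 by the other 5, none of which passed. The value of the brightest probe was -0.67 within replicates 1 to 4 and -0.03 within replicates 5 to 8, -0.15 without low-RFI replicate 3 and -0.55 without low-RFI replicate 4. The sign for GSTO1 changed to -0.10 within replicates 1 to 4. By the brightest probes, the intervals for CAT (-0.25 to 0.29), SOD1 (-0.32 to 0.27) and GPX4 (-0.21 to 0.35) stayed within about 0.35 of 0. Those for GPX2 (-1.54 to 0.60) and NQO1 (-0.93 to 0.97) were wide. Other probes reached farther: -0.42 to 0.53 for CAT A_72_P686566, -0.40 to 0.40 for SOD1 A_72_P741111 and -0.19 to 0.43 for GPX4 A_72_P646221.

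**Figure D3:**
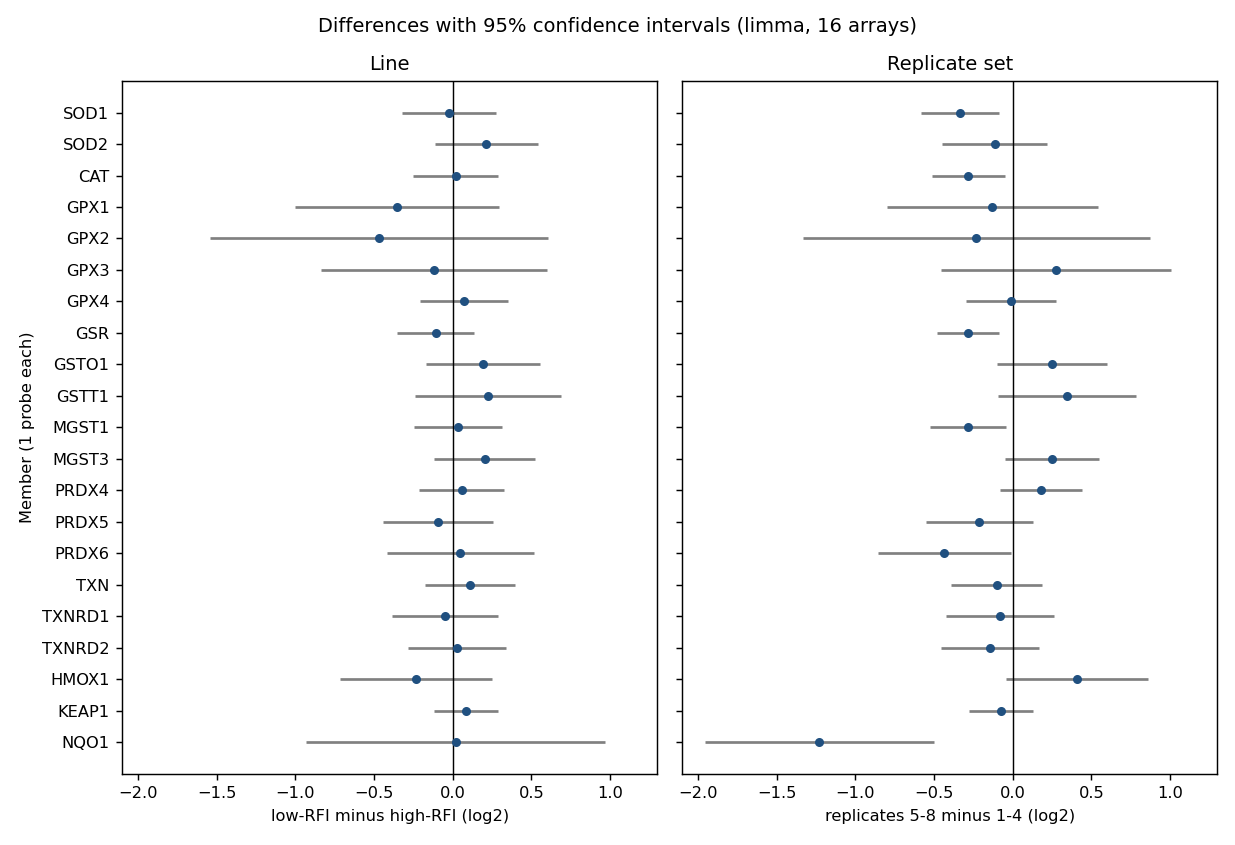
Differences (points, log2) with 95% confidence intervals (bars) for the 21 members, 1 probe each, between the lines (left) and between the replicate sets with line in the model (right). All line intervals include 0, and NQO1 lies farthest from 0 between the sets, at -1.23.

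Between the replicate sets, NQO1 was lower in replicates 5 to 8 and most other members leaned the same way by small amounts. With line in the model, 1 of 74 member probes passed, against 5.03% of all kept probes (3.18% lower in replicates 5 to 8), so passing probes were not more common among the members. At an unadjusted p of 0.05 there were 22 of 74 member probes, 21 lower in replicates 5 to 8 and 1 higher. Over all probes the shares were 23.4% in all, 14.3% lower and 9.14% higher. The median difference, replicates 5 to 8 minus 1 to 4, was -0.19 over member probes and -0.03 over all. Of 74 member probes 58 were below 0, beside 55.1% of all. Several probes read the same gene. With 1 probe per member the median was -0.11, 15 of 21 were below 0, and 6 of 21, all lower, had an unadjusted p under 0.05. The member probe that passed was the NQO1 probe A_72_P127796, with means of 0.37 in replicates 1 to 4 and -0.97 in replicates 5 to 8. This was a difference of -1.34 (SE 0.35, adjusted p = 0.0401), or 2.53-fold. The brightest NQO1 probe differed by -1.23 (SE 0.34, adjusted p = 0.0501) and the remaining one by -1.25 (SE 0.36, adjusted p = 0.0566), both just missing the threshold. The call depended on single arrays. It held without low-RFI replicate 1, 3 or 8 (adjusted p = 0.0350, 0.00357 and 0.0256) and was lost in the other 13 fits that left out 1 array, with a highest adjusted p of 0.0828. Correction of the background by normexp also ended it (-0.99, adjusted p = 0.215), as did leaving out the 4 arrays named above (-1.49, adjusted p = 0.103).

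None of the other members passed. GSR differed by -0.28 (SE 0.09, adjusted p = 0.0773), SOD1 by -0.33 (SE 0.12, adjusted p = 0.102), CAT by -0.28 (SE 0.11, adjusted p = 0.137), MGST1 by -0.28 (SE 0.11, adjusted p = 0.150) and PRDX6 by -0.43 (SE 0.20, adjusted p = 0.202). GSR ranged from 0.72 to 1.24 (median 0.97) in replicates 1 to 4 and from 0.56 to 0.91 (median 0.66) in replicates 5 to 8, with overlap. SOD1 ranged from 6.96 to 7.45 (median 7.38) and from 6.52 to 7.27 (median 6.99), also with overlap. All 5 SOD1 probes, 4 of 9 CAT probes and 5 of 6 PRDX6 probes had an unadjusted p under 0.05; the CAT probes shown above differed by -0.42 and -0.61 (adjusted p = 0.0586 and 0.0541). Of the 21 members, 6 had a positive value and none of these passed: HMOX1 at 0.41 (SE 0.21, adjusted p = 0.262), GSTT1 at 0.34, GPX3 at 0.28, MGST3 at 0.25 (SE 0.14, adjusted p = 0.302), GSTO1 at 0.25 and PRDX4 at 0.18. Neutrophil markers had a lower mean in replicates 5 to 8, with overlap. Their summed signal ran from 0.87 to 4.15 (mean 3.20) in replicates 1 to 4 and from 1.12 to 3.27 (mean 1.85) in replicates 5 to 8. Of these markers 4 of 7 were measured, 3 of them well above background on all arrays. Endothelial markers ran from 5.76 to 6.55 (mean 6.36) and from 5.89 to 6.35 (mean 6.05), with 7 of 10 measured. Hepatocyte plasma protein markers (5 of 7 measured) had means of 3.87 and 3.37. T and NK cell markers (8 of 12 measured) were higher in replicates 5 to 8, with means of 0.96 and 1.31. The part of these cell types in the set differences was not tested.

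The number of member probes called between the sets turned on single arrays, most of all low-RFI replicate 3. Without it, 19 of 74 member probes passed, all lower in replicates 5 to 8 (6 for PRDX6, 5 for CAT, 3 each for SOD1 and NQO1, 2 for MGST1), while 4746 of all kept probes passed (14.8%). Without low-RFI replicate 1 there were 5 (4.92% of all kept probes), without low-RFI replicate 5 there were 3 (2.91%), without low-RFI replicate 8 there were 3 (4.92%), and without any 1 of the other 12 arrays there were 0. Within the high-RFI line alone, 15 of 74 member probes passed, all lower in replicates 5 to 8, beside 4.71% of all kept probes. They were all 6 PRDX6 probes, all 3 NQO1 probes, 3 of SOD1, 2 of CAT and 1 of MGST1. NQO1 differed there by -1.82 (SE 0.28, adjusted p = 0.0182), from 1.24 ± 0.57 to -0.58 ± 0.28 (SD, n = 4), and PRDX6 by -0.79 (SE 0.16, adjusted p = 0.0376), from 3.03 ± 0.12 to 2.23 ± 0.31 (SD, n = 4). Within the low-RFI line 0 of 74 member probes passed and 1 had an unadjusted p under 0.05, with 0 and 2707 over all kept probes. There NQO1 was 0.66 ± 1.09 and 0.03 ± 0.56, and PRDX6 was 2.71 ± 0.66 and 2.64 ± 0.21 (SD, n = 4).

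The difference between the lines in this shift was tested by the interaction of line and set, and it did not pass for any member. Of 74 member probes 0 passed (0% of all kept probes) and 5, all positive, had an unadjusted p under 0.05, beside 6.8% of all kept probes and 3.31% counting positive values alone. The median interaction was 0.27 over member probes and 0.01 over all. Member probes repeat genes: with 1 probe per member the median was 0.14, and 0 of 21 had an unadjusted p under 0.05. A positive value means that low minus high was larger in replicates 5 to 8. PRDX6 had 0.72 (SE 0.36, adjusted p = 0.739), GPX4 0.49 (SE 0.25, adjusted p = 0.745), SOD1 0.42 (SE 0.22, adjusted p = 0.745) and GSTO1 0.59 (SE 0.30, adjusted p = 0.746). NQO1 had the largest value of the 21 members, 1.19 (SE 0.63, adjusted p = 0.756). SOD1 in high-RFI pigs was 7.41 ± 0.04 in replicates 1 to 4 and 6.86 ± 0.28 in replicates 5 to 8, and in low-RFI pigs 7.17 ± 0.20 and 7.05 ± 0.23 (SD, n = 4). A set effect that differs between the lines was therefore not shown for these genes.

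The members leaned towards positive correlation over the 16 arrays. Of 210 pairs of members, 55 (26.2%) had r above 0.5 and 14 (6.67%) below -0.5, with a median of 0.29; over pairs of all kept probes the shares were 6.54% and 5.19% and the median 0.015. With the means of each line and set removed, the median was 0.27 and the share above 0.5 was 27.6%. These are descriptions, since all values on an array share its RNA, its scaling and its mix of cells. MGST1 correlated with CAT at 0.82, with PRDX6 at 0.81, with NQO1 at 0.80 and with SOD1 at 0.76, and NQO1 with PRDX6 at 0.83. PRDX4 ran against this group, at -0.65 with CAT and -0.64 with NQO1. GSTT1 ran at -0.67 with both CAT and SOD1 and at 0.69 with PRDX4. HMOX1 and NQO1, both known NRF2 targets, had a negative r, given below with its test.

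**Figure D4:**
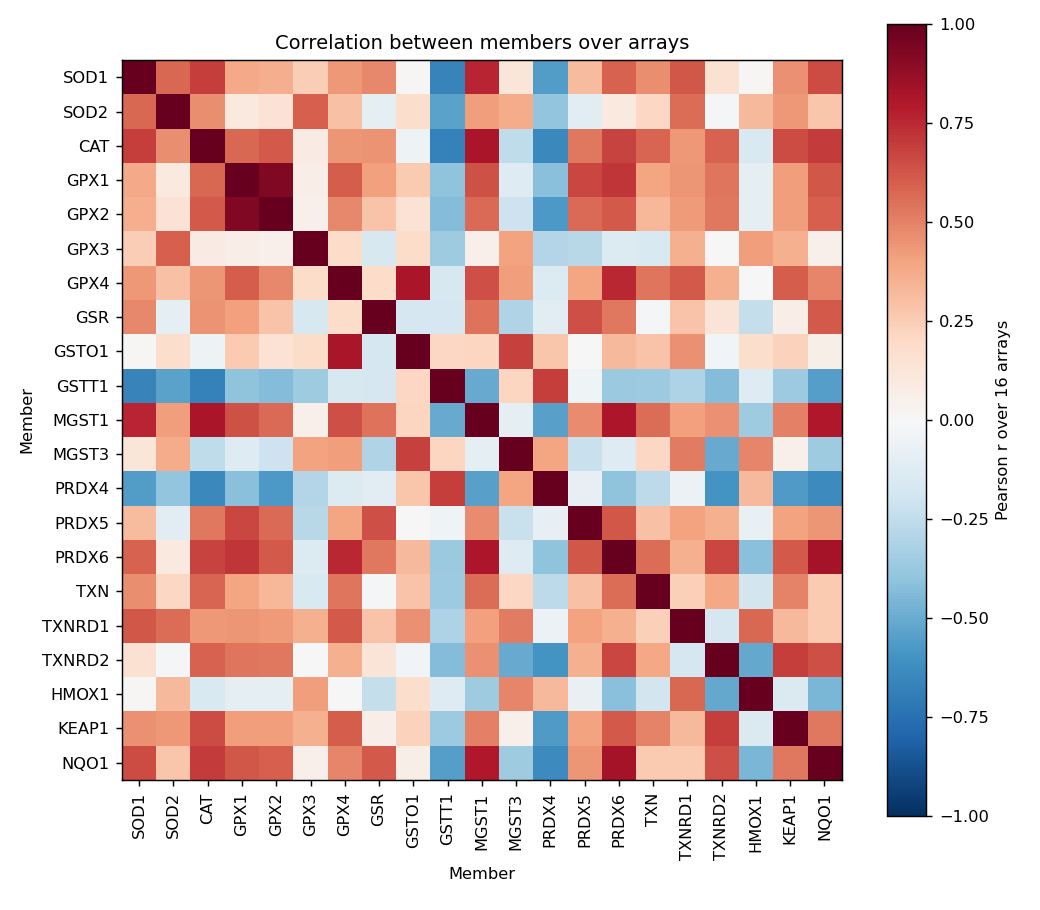
Pearson r over 16 arrays (colour, -1 to 1) between each pair of the 21 members, in family order on both axes. The deepest red off the diagonal is GPX1 with GPX2 (0.93), and PRDX4 and GSTT1 are blue against CAT and SOD1.

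Of 21 functional pairs listed, 7 had both genes measured, and these were tested with two-sided permutation tests of 100000 resamples, adjusted over the 7. SOD1 and CAT were positively correlated, with r = 0.69 (p = 0.00299, adjusted p = 0.0209, permutation) and rho = 0.79 (p = 0.00041, adjusted p = 0.00287, permutation). Without the 2 arrays farthest from the SOD1 median r was 0.67. Within replicates 1 to 4 r was 0.60 (exact permutation p = 0.130, adjusted p = 0.312) and within replicates 5 to 8 it was 0.58 (exact permutation p = 0.132, adjusted p = 0.308), so the relation did not pass within either set of 8 arrays. Within replicates 1 to 4 it fell to -0.09 without the 2 farthest arrays. HMOX1 and NQO1 had r = -0.46 (permutation p = 0.0738, adjusted p = 0.172) and rho = -0.63 (permutation p = 0.0116, adjusted p = 0.0407). Their r was -0.65 without the 2 farthest arrays, but -0.16 and -0.44 within the sets (exact permutation p = 0.709 and 0.283). Within replicates 5 to 8 it was 0.15 without the 2 farthest arrays, and within replicates 1 to 4 it was -0.35. With line and set means removed r was -0.23 (permutation p = 0.403) and rho was -0.07 (permutation p = 0.806). With quantile scaling rho was -0.71 (adjusted permutation p = 0.0187). SOD1 and SOD2 had r = 0.58 (permutation p = 0.0196, adjusted p = 0.0685) and rho = 0.39 (permutation p = 0.134, adjusted p = 0.313). In these values r dropped to 0.13 without the 2 farthest arrays. With line and set means removed r was 0.71 (adjusted permutation p = 0.0162), and 0.57 without the 2 farthest arrays. With normexp it was 0.74 (adjusted permutation p = 0.00427) and 0.48. With quantile scaling it was 0.34 (adjusted permutation p = 0.346) and 0.26, so the relation depended on the processing. TXN and TXNRD1 had r = 0.24 and rho = 0.33, GPX1 and GSR 0.41 and 0.27, GPX4 and GSR 0.18 and -0.00, and MGST1 and MGST3 -0.09 and -0.08. None of these 4 passed (adjusted permutation p from 0.203 to 0.743 for r and from 0.378 to 0.996 for rho).

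Among the listed genes around these enzymes, UCP2 was the one that passed between the sets. Of 78 further NRF2-linked and glutathione genes, 28 were measured, and 1 passed. UCP2, an uncoupling protein of the inner mitochondrial membrane, had means of 0.80 in replicates 1 to 4 and 2.27 in replicates 5 to 8, a difference of 1.48 (SE 0.21, adjusted p = 0.00633), or 2.79-fold, opposite in sign to NQO1. The other 27 did not pass, beside 5.03% of all kept probes that did. At an unadjusted p of 0.05, 3 of the 28 were higher and 7 lower, beside 9.14% and 14.3% of all kept probes. In all 22 of 28 were below 0, with a median of -0.16, beside 55.1% and a median of -0.03 over all kept probes. Of 23 producers of reactive oxygen, 10 were measured and 0 passed between the sets, with 3 lower at an unadjusted p under 0.05, 7 of 10 below 0 and a median of -0.11. MAOA, monoamine oxidase A, differed by -0.34 (SE 0.11, adjusted p = 0.0801). Between the lines 0 of 28 and 0 of 10 passed, and 0 of each had an unadjusted p under 0.05, beside 3.62% of all kept probes. Values between the lines were -0.43 for EPHX1, an epoxide hydrolase, -0.47 for GGT1, which breaks down extracellular glutathione, and -0.26 for NOS3, the endothelial nitric oxide synthase (adjusted p = 0.9997 for each). In the interaction 0 of 28 and 0 of 10 passed. At an unadjusted p of 0.05 there were 1 of 28, positive, and 3 of 10, all negative, beside 6.8% of all kept probes. The values were 0.86 for OXR1 (adjusted p = 0.724), -3.28 for MT1A, a metallothionein (adjusted p = 0.734), -1.77 for DUOX1 (adjusted p = 0.708) and -1.56 for NCF1 (adjusted p = 0.717), the last 2 being parts of hydrogen peroxide or superoxide producing oxidases.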

How the data were processed

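RNA of 16 pigs was hybridised to 1 Agilent 1-colour array each. Extraction used Trizol followed by silica columns, and amplified RNA was labelled with Cy3, per the labels' protocols. The deposited processed intensity of each spot had been background subtracted and detrended, per the file headers, by Agilent Feature Extraction 10.7.3.1, with no scaling between arrays. A deposited log2 table equalled log2 of this signal minus the array median and served as an alternative. The submitters' processing notes name R 2.10.0. The steps behind its choice of spots are not given in the sources used here.

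Outlier spots and controls were left out, spots of a probe averaged, and log2 values scaled to each array's 75th percentile. Probes well above background on at least 8 arrays with at least 6 values per line were kept (32097; 0.119% of values missing). Line, replicate set (with line) and their interaction were fitted with limma 3.58.1 in R 4.3.3 over all kept probes, with Benjamini-Hochberg adjustment and a threshold of 0.05. The procedure was tested on simulated data. Correlations used numpy 2.4.6 and scipy 1.17.1. Slides, read from the files, each held 1 array of every line and set. The number of arrays limits the precision, and the labels give 1 pig per array but no litter, pen or day.

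The named genes were those with the smallest p (6 for line, 8 for set, 4 for interaction), every member's level, and, from the other lists, passing genes or else the 2 with the smallest p; 1 gene that the rule picks is not reported here. The members and lists were chosen with earlier results of these data known. Further alternatives were other scalings, normexp, filters, weights, blocks and left-out arrays. Names are those of the array design; gene positions were not used here.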

Additional observations from a re-analysis of the deposited data

Results flagged for a closer look

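Of 42 groups examined (21 members in 2 lines of 8 arrays), 1 held an array far from the others, where chance gives about 1 in 20. GPX4 in high-RFI replicate 5 was at 6.34, and the other 7 high-RFI arrays lay between 6.69 and 6.996; the gap was 0.526 of the group's whole range, at the limit of 0.526. GSTA1, which missed the rule for members, gave a signal well above background on 4 arrays, with values given above. No line by set interaction of a member passed the threshold.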

How the results depend on the processing

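For the lines, 0 of 74 member probes were called under all 32 alternatives; over all kept probes the count of 0 became 5 within replicates 1 to 4 and ranged from 0 to 1 when 1 array was left out. Of 192 line values of named members, 191 kept their direction and side; GSTO1 reversed to -0.10 within replicates 1 to 4. Between the sets, the 1616 probes called became 17 with normexp, 838 with no filter on dim probes, 5403 with array weights, 0 without the 4 arrays named in the report, 0 within low-RFI and 573 to 4746 when 1 array was left out. The 1 member probe called (5.03% of all probes) became 3 with quantile scaling (4.95% of all probes), 4 with a filter on all 16 arrays (6.28%), 22 with array weights (16.8%), 3 with slide as a block (4.89%), 4 with set as the only term (5.15%) and 15 within high-RFI (4.71%). It became 0 with normexp, with no filter, without the 4 arrays and within low-RFI, and 0 to 19 when 1 array was left out (1.79% to 14.8%). Of 287 set values of named members, 250 kept direction and side, 20 newly passed, 17 no longer passed (all of the NQO1 probe) and 0 reversed. The cause was not tested, beyond fewer arrays or probes where the alternative has them. Normexp moved the median line difference of all probes from 0.00 to -0.12. The interaction count of member probes was 0 under all 29 alternatives.

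The replicate numbers did not pair the arrays: deviations of arrays with the same number correlated at -0.29 to 0.32, and 1 low-RFI array was closest to the high-RFI array of its own number. With the replicate block, 2 member probes (5.61% of all probes) were called between the sets, and 1 probe of all in the interaction. By Pearson r, 1 of the 7 gene pairs passed. The count was 0 within replicates 1 to 4, 0 within replicates 5 to 8 and 0 with quantile scaling. It was 2 with line and set means removed and 2 with normexp, each time SOD1 with CAT and SOD1 with SOD2. Reversed pairs were GPX1 with GSR (-0.15) and GPX4 with GSR (-0.35) within replicates 5 to 8, and MGST1 with MGST3 at 0.77 within replicates 5 to 8, 0.061 with line and set means removed and 0.28 with normexp.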
